A study of Mus musculus with 18 samples.

Results

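The 33 genes described here encode the receptors, adaptors and transcription factors that carry a signal from a microbial molecule to NF-kB. They were taken by symbol from the 30905 genes listed for each library and fall into 3 tiers: 12 receptors, 12 adaptors and kinases, and 9 genes of the NF-kB complex and its regulators. Among 138000 nuclei of the hippocampus (Hip) and the prefrontal cortex (PFC), those that met a gate of marker genes were placed into a cell class. The other nuclei, and those of classes not described here, were left out. The unique molecular identifiers (UMIs) of a class were summed for each library, and the members were read from these sums. No member was used as a marker. The 18 libraries came from 9 male Kun Ming mice, an outbred strain, aged 8 weeks. The germ-free (GF) group of 3 mice was raised without microbes, the specific pathogen-free (SPF) group of 3 mice carried a microbiota, and the colonized (CGF) group of 3 mice was born germ-free and then co-housed with SPF mice. GF and CGF mice lived in gnotobiotic isolators and SPF mice did not, so that housing and the absence of microbes cannot be told apart in GF against SPF. Each mouse gave 1 Hip and 1 PFC library, and values of a group are given below in the order of mice 5, 6 and 7 (GF), 30, 31 and 32 (SPF) and 17, 18 and 19 (CGF).

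Toll-like receptors (TLRs) are membrane receptors for conserved microbial molecules: TLR1, TLR2 and TLR6 bind lipoproteins, TLR4 lipopolysaccharide and TLR5 flagellin at the cell surface, and TLR3, TLR7, TLR9 and TLR13 bind nucleic acids in endosomes. NOD1 and NOD2 sense fragments of bacterial cell wall in the cytosol, and NLRP3 forms an inflammasome. Most TLRs recruit MYD88, with TIRAP as a bridge at the cell surface, and TLR3 recruits TICAM1. The IRAK kinases and the ubiquitin ligase TRAF6 then activate MAP3K7 (TAK1) with its partners TAB1, TAB2 and TAB3. MAP3K7 activates the IKK complex (IKBKB, CHUK and IKBKG), which marks the inhibitor NFKBIA for degradation. This releases dimers of subunits such as NFKB1, RELA and REL into the nucleus. NFKB2 and RELB are the other subunits of NF-kB. In the brain, microglia are the resident macrophages and a main site of this pathway.

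A Hip library held between 49067853 and 63217083 UMIs. PFC libraries of GF mice held 59126586 to 71463928, those of SPF mice 20336250 to 26949210 and those of CGF mice 22213863 to 26151503. Depth and group therefore cannot be told apart in the PFC. The gate for microglia took 1832 Hip and 1888 PFC nuclei, whose summed UMIs per library were 329897 to 393132 (GF), 429010 to 532509 (SPF) and 266131 to 337305 (CGF) in the Hip, and 461675 to 620997 (GF), 83035 to 163947 (SPF) and 66128 to 179340 (CGF) in the PFC. In the Hip the sums of GF lay below those of SPF without overlap, so summed microglial UMIs and these groups cannot be told apart there either. Of 13 microglial markers kept out of the gate, at least 12 were found in each group, at 3696 to 5163 CPM in every library (CPM are UMIs scaled to a class sum of 1000000). Pairs of libraries shared at most 29 barcodes.

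Promoter sequences were examined for letters that the pathway's own factors and a factor of macrophages are known to bind. Windows from 250 bases before to 50 bases after each start were taken from RefSeq on GRCm38.p6, and 27 of the 33 members matched. No window was read for Tlr4, Tlr7, Tab1, Ikbkb, Nfkb1 and Relb, which were not searched. The 10-base kB consensus, the site of NF-kB dimers, was found on either strand in the windows of 7 members, namely Tlr2, Tlr3, Nlrp3, Map3k7, Nfkb2, Rel and Nfkbia. It was present in 5.14% of all genes with a window. The letters GAGGAAG on either strand, which hold the core of the site of the macrophage factor PU.1, were found in windows of 9 members, Tlr1, Tlr9, Tlr13, Nlrp3, Ticam1, Traf6, Tab2, Ikbkg and Rel, and in 15.4% of all genes. The 27 members had 40 windows and all 27025 genes had 32851, so members had more windows per gene and the shares are not compared alike. These matches describe letters and were not tested against the expression values. The kB consensus and GAGGAAG do not overlap in the windows shown. Rel and Nfkbia are shown because their products are themselves part of NF-kB signalling and because their levels stood apart in 1 of the 7 classes compared below, and Tlr3 because it is a receptor that was lower in GF microglia; capitals mark the kB consensus.
Rel, chr11:23770920-23771219, minus strand: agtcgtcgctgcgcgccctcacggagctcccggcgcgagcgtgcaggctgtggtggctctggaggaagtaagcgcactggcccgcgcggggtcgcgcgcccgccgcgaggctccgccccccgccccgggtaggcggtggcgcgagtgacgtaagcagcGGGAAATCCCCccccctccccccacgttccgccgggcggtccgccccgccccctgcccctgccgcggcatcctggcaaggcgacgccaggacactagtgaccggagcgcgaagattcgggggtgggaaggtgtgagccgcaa
Nfkbia, chr12:55492598-55492897, minus strand: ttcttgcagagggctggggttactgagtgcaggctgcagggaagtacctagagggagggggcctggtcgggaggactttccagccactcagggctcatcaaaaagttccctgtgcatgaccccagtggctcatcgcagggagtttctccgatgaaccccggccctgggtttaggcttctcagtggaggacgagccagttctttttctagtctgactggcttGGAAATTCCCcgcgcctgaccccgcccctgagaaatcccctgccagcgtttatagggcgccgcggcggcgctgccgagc
Tlr3, chr8:45410331-45410630, minus strand: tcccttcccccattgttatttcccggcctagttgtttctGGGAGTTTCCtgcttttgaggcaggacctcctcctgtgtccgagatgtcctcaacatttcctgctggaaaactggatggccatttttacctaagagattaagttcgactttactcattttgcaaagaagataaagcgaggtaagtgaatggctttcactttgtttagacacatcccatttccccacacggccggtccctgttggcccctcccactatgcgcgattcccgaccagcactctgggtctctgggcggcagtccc
Tlr1 and Tlr13 are shown as receptors whose RNA was highest in microglia among those 7 classes. Traf6 and Ticam1, which also hold GAGGAAG, were highest in oligodendrocytes, and Tlr2 and Tlr6 were highest in microglia without it. In the windows of Tlr1 and Tlr13 capitals mark GAGGAAG.
Tlr1, chr5:64933509-64933808, minus strand: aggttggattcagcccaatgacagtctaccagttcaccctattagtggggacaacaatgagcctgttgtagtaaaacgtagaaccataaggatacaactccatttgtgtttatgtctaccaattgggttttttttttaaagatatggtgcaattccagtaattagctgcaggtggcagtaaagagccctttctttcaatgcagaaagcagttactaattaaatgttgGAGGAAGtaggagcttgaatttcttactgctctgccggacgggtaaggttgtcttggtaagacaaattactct
Tlr13, chrX:106143025-106143324, plus strand: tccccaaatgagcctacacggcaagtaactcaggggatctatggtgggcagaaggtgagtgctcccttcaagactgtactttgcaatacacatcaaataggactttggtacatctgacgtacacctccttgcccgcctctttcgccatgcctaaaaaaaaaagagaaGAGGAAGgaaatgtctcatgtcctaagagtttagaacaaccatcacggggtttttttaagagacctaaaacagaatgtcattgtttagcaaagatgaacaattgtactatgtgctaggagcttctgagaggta
In these windows the kB match lies 29 bases before the start of Nfkbia, 92 before that of Rel and 211 before that of Tlr3, and GAGGAAG lies 23 bases before the start of Tlr1 and 83 before that of Tlr13.

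Microglia were the class with the highest level for most receptors and for fewer members of the other tiers. Among 7 classes (microglia, astrocytes, oligodendrocytes, oligodendrocyte precursors (OPC), endothelium, excitatory neurons and interneurons; the few border-associated macrophages are described separately below), the mean CPM over 9 libraries was highest in microglia for 11 of 12 receptors in the Hip and 9 in the PFC. It was highest there for 6 and 5 of 12 adaptors and kinases and for 5 of 9 NF-kB genes in each region. Some leads of receptors in the Hip were thin: Tlr9 had 2 microglial UMIs (0.498 CPM). Tlr3 was at 21.73 against 20.96 CPM in astrocytes and Nod2 at 4.25 against 3.43 in endothelium. The share of all genes with their highest mean in microglia was not determined, so these counts describe the members only. Microglia were tested against the mean of the other 6 classes on the log2 scale with the quasi-likelihood test of edgeR on the class sums, with the library as a block. P-values were adjusted by Benjamini-Hochberg over all genes, and a difference was called at an adjusted p under 0.05. In the Hip 19 of 26 members tested were higher in microglia, where 27% of all genes tested were higher and 59.2% differed in either direction. In the PFC 18 of 23 were higher, where 24.9% of all genes were higher and 52.7% differed. Members near 0 in the other 6 classes (Tlr7 and, in the Hip, Tlr13 and Nlrp3) passed the filter on low counts through their microglial libraries and therefore had to differ, so these counts describe the members tested and support nothing about the 33. When all class sums were thinned to the lowest sum, fewer members could be tested and 5 and 3 were higher in the Hip and PFC.

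**Figure D1:**
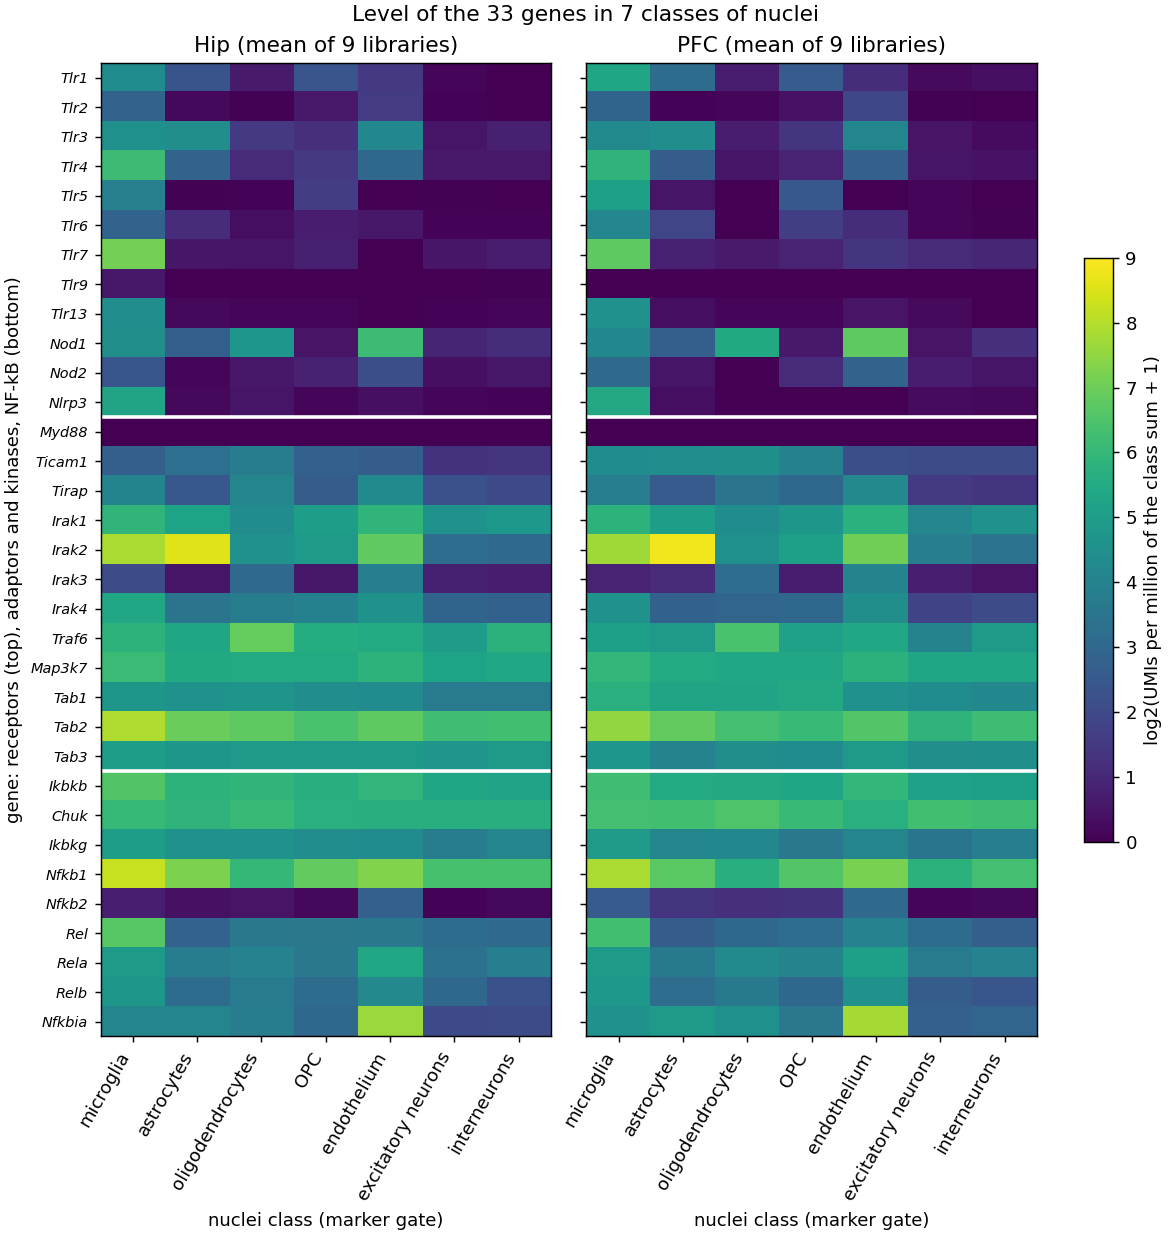
Mean level of each member in each cell class (colour, log2 of CPM + 1, mean of 9 libraries) in the Hip and the PFC, with members ordered by tier. The receptors Tlr4, Tlr7 and Tlr13 stand out in the microglia column, Nfkbia in the endothelium column and Irak2 in the astrocyte column, while most adaptors and NF-kB genes have a level in every class.

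Tlr7, an endosomal receptor for single-stranded RNA, was the receptor with the highest microglial level (chrX:167304929-167330558, mm10). In the Hip its values were 206, 142 and 173 CPM in GF, 111, 133 and 87.6 in SPF and 109, 135 and 160.1 in CGF libraries, and in no library of the other 6 classes did it exceed 3.71 CPM. No fold against the other classes is given for it, since it had no UMI in any Hip endothelial library. Tlr4, the lipopolysaccharide receptor, averaged 71.1 ± 28.7 CPM (SD, n = 9) in Hip microglia and 57.5 ± 31.8 in PFC microglia, against means of at most 6.997 and 5.71 CPM in the other 6 classes. Tlr13, a receptor for bacterial ribosomal RNA, was low, at 20.2 and 22.5 CPM, but its lowest microglial library (10.4 in the Hip, 9.15 in the PFC) lay above the highest library of the other 6 classes (1.02 and 3.37). That lowest PFC library, CGF 18, rests on 1 UMI. The NF-kB subunit gene Rel followed the same pattern in both regions, with means of 99.8 ± 21.1 and 77.1 ± 32.9 CPM and differences of 3.07 ± 0.13 and 3.15 ± 0.17 log2 units (± SE) from the other classes. Non-overlap of microglia with every library of the other 6 classes was also seen for Nlrp3, Tab2 and Nfkb1 in the Hip and for Tlr1 in the PFC. The share of all genes with such non-overlap was not determined.

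Other receptors were shared with other cells. Tlr3, a receptor for double-stranded RNA, was 21.7 ± 15.4 CPM in Hip microglia and 21 ± 12.8 in Hip astrocytes, and 18.8 ± 15 and 20.4 ± 16.3 in the PFC, values closer to each other than their SDs. Nod1 was highest in endothelium, at 70.5 ± 21.2 CPM in the Hip and 108 ± 53.7 in the PFC, then in oligodendrocytes at 25.4 and 42.8. Because the contrast averages log values of 6 classes, Nod1 and Irak2 could test higher in microglia although endothelium and oligodendrocytes (Nod1) or astrocytes (Irak2) had higher means. Tlr2 (6.3 and 6.44 CPM), Tlr6 (6.33 and 16.8) and Nod2 (4.25 and 7.71) were low in microglia and absent from some microglial libraries.

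Among the adaptors and kinases, Irak2, a kinase downstream of MYD88, was highest in astrocytes, at 372 ± 68.3 CPM in the Hip and 447 ± 144 in the PFC. It also had the highest mean of its tier in PFC microglia, with 230.1, 193 and 190 CPM in GF, 253, 266 and 207 in SPF and 234, 201 and 106 in CGF libraries, and the 3 groups overlapped. Tab2, which links TRAF6 to MAP3K7, had the highest mean of the tier over the 9 Hip microglial libraries (240 ± 47.3 CPM, against 230.2 ± 42.5 for Irak2), but Irak2 had the higher mean in GF (206 against 191) and SPF mice (258 against 249). Traf6 was highest in oligodendrocytes in both regions, at 115 ± 66.5 and 84.9 ± 66.1 CPM, and its values by group are given below. Tirap and Irak3, an inhibitory member of the IRAK family, had their highest means over the 9 libraries of a region in endothelium. They stood at 15.8 and 3.16 CPM in Hip microglia. In GF mice of the Hip, however, Tirap was higher in microglia (24.25 CPM) and oligodendrocytes (19.44) than in endothelium (16.83). In CGF mice of the Hip it was higher in oligodendrocytes (17.77) than in endothelium (13.82). Irak3 in GF mice of the Hip was narrowly higher in oligodendrocytes (5.03 against 4.96). In SPF mice of the Hip and each PFC group, endothelium exceeded microglia and oligodendrocytes for both genes.

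Nfkb1, the gene of the p50 subunit, was the member with the highest mean CPM in microglia over the 9 libraries of each region (chr3:135584655-135691547). In SPF mice of the PFC Irak2 had a higher mean (242 against 197 CPM). The Hip values of Nfkb1 were 302, 255 and 300.2 in GF, 282, 359 and 289 in SPF and 414, 293 and 243 in CGF libraries, and its PFC values 268, 297 and 270.5, 265, 124 and 201 and 218, 247 and 166. The groups overlapped in the Hip, while in the PFC the GF libraries lay above the SPF and CGF libraries. Nfkbia, whose product retains NF-kB in the cytoplasm, had a different distribution: it was 200.1 ± 78.6 CPM in Hip and 220.4 ± 82.3 in PFC endothelium, against 16.4 and 22.3 in microglia. The lowest endothelial library (127 and 121 CPM) was above the highest library of the other 6 classes (33.3 and 50.9). Rela and Nfkb2 also had their highest means over the 9 libraries of a region in endothelium. In SPF mice of the PFC, however, microglia had higher means than endothelium (Rela 30.7 against 24.5 CPM, Nfkb2 14.4 against 5.5). In GF and CGF mice of the PFC the endothelial means were the higher ones, narrowly for Rela in CGF (31.21 against 31.05). Since a long gene can collect more nuclear UMIs, levels between genes were also set per kb of gene body. On that scale the highest in Hip microglia were Irak1 (5.85 CPM per kb), Tlr7 (5.46), Nfkbia (5.05) and Tab2 (4.74), and Nfkb1 stood at 2.84.

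Some members were scarcely detected. Of the 33 members, 32 had a UMI in microglia and 16 had one in every microglial library, and all members together gave 10120 microglial UMIs. Myd88, the adaptor of most TLRs, had 0 UMIs among 722273705 UMIs of all classes. Its gene (chr9:119335934-119341411, minus strand) lies wholly inside the annotated span of Slc22a14 on the same strand, which had 21371 UMIs, and 31.7% of it overlaps Acaa1a on the opposite strand, which had 15035. How reads shared by overlapping genes were counted is not given in the sources used here, so the 0 gives no information on the level of Myd88 RNA. Tlr9 had 2 microglial UMIs and Nfkb2 had 9.

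Border-associated macrophages, which sit at the meninges and vessels, were recognised in 112 Hip and 104 PFC nuclei and are given mainly as pooled values, since the class sum was as low as 1383 UMIs in a library. Nuclei that also opened the microglial gate could be placed in this class. Markers of this class kept out of its gate were found in each group (3 to 5 of 5). In all, 30 members had a UMI there, with 646 UMIs together. Tlr7 was at 143 CPM in Hip and 133 in PFC border macrophages, near the pooled microglial values of 138 and 148. Tlr4 was at 94.3 and 117, against 68.2 and 72.3 in microglia. Irak2 (128 and 58.3 against 233 and 208) and Nfkb1 (211 and 143 against 303 and 255) had lower pooled values than in microglia. Tlr3 had no UMI in border macrophages, which allows up to 6.61 CPM. Single border libraries, which rest on few UMIs, reached 265 CPM for Tlr7, 88.5 for Tlr13 and 44.2 for Nfkbia in the Hip. No test was made on this class.

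In Hip microglia 4 receptors, Traf6 and Tab3 were called between GF and SPF mice, and no NF-kB gene passed the test. Tlr4, Tlr1, Tlr7 and Traf6 were higher in GF, and Tab3 and Tlr3 were lower. In all, 6 of the 20 members tested were called (30%), where 22.2% of all genes tested were called in this comparison. By tier, 4 of 5 receptors, 2 of 8 adaptors and kinases and 0 of 7 NF-kB genes passed. Tlr3 met the filter on low counts only through its SPF libraries, and Tlr1 only through GF 5, GF 6 and CGF 19. Which receptors were tested thus depended in part on the group values. These counts therefore describe the members tested and support nothing about the receptors as a tier. The median log2 fold change of the 20 was -0.10, against -0.01 over all genes. The 13 members not tested, for too few UMIs, were Tlr2, Tlr5, Tlr6, Tlr9, Tlr13, Nod1, Nod2, Myd88, Ticam1, Tirap, Irak3, Nfkb2 and Nfkbia. Only Tlr4 and Tab3 were also called by DESeq2, which gave 2 calls.

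Tlr4 (chr4:66827584-66930284) stood at 96.3, 103 and 112 CPM in the GF libraries, 41.3, 42 and 39.4 in the SPF libraries and 62.9, 86.4 and 56.3 in the CGF libraries. Every GF library was above every SPF library, and the CGF libraries lay between. The log2 fold change of GF over SPF was 1.36 ± 0.24, adjusted p 0.000214 (edgeR, Benjamini-Hochberg). Tlr1 (chr5:64924679-64933563), which pairs with TLR2, was at 41.6, 27.3 and 22.9 CPM in GF, 3.76, 11.7 and 10.9 in SPF and 19.9, 11.3 and 29.6 in CGF libraries, from 16, 9 and 9, 2, 5 and 5 and 6, 3 and 10 UMIs. GF and SPF libraries did not overlap, and CGF libraries overlapped both. The fold change was 1.83 ± 0.50, adjusted p 0.00847. Tlr1 is a close relative of its neighbour Tlr6 on chromosome 5, and reads that fit both genes may be missing from either count. Tlr7 was 0.68 ± 0.21 higher (adjusted p 0.0173), and its 3 GF values, printed above, all exceeded the 3 SPF values.

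Tlr3 (chr8:45395665-45411080) moved the other way. It was at 23.4, 12.1 and 10.2 CPM in GF, 35.7, 39.6 and 43.8 in SPF and 3.31, 3.76 and 23.7 in CGF libraries. All GF and CGF libraries were below all SPF libraries, and the fold change of GF over SPF was -1.33 ± 0.45, adjusted p 0.0327. Tab3 (chrX:85574022-85634469), the gene of a TAB2-related partner of MAP3K7, was at 15.6, 9.09 and 17.8 CPM in GF, 47, 46.6 and 37.2 in SPF and 36.4, 26.3 and 41.5 in CGF libraries. The GF libraries were below all others, with -1.55 ± 0.37, adjusted p 0.00346 against SPF. Traf6 (chr2:101678429-101701669) was at 75.5, 84.9 and 83.9 CPM in GF, 69.5, 37.3 and 37.2 in SPF and 33.1, 52.6 and 29.6 in CGF libraries. The GF libraries were above all others, SPF mouse 30 lay nearest to them, and the fold change was 0.75 ± 0.27, adjusted p 0.0481. This call was lost in 12 of 15 alternatives: by DESeq2 (0.251), without the filter on low counts (0.115), with the length and GC trend removed (0.131), with only the 6 libraries compared (0.0627) and in the fits without 1 mouse listed below (adjusted p in brackets).

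The NF-kB tier showed no call between GF and SPF in the Hip, by edgeR or by DESeq2, and 2 of its genes had an unadjusted p under 0.05. These were Ikbkb (-0.50 ± 0.23, adjusted p 0.116) and Chuk (-0.60 ± 0.27, adjusted p 0.109), the kinase subunits of IKK. Nfkb1 had -0.09 ± 0.18, Rel -0.12 ± 0.24 and Rela 0.20 ± 0.38. Nlrp3, the fifth receptor tested, had -0.25 ± 0.37, adjusted p 0.686. Leaving out 1 mouse at a time kept the calls of Tlr4 and Tab3, and the count of calls was 3 without GF 5, GF 7 or SPF 30 and 4 or 5 without each of the others. The 4 without SPF 32 include Nfkbia, which could not be tested with all mice and was higher in GF there (2.08, adjusted p 0.0279). The call of Tlr1 was lost without mouse SPF 30 (0.0661) and with the length and GC trend removed (0.0528), and Tlr1 could not be tested without GF 5, in thinned sums or with only the 6 libraries compared. The call of Tlr7 was lost without GF 5 (0.118), GF 7 (0.055), SPF 30 (0.0546) and SPF 32 (0.0748), and that of Tlr3 without GF 6 (0.106), GF 7 (0.126), SPF 30 (0.0548), SPF 31 (0.0656) and SPF 32 (0.0867). Traf6 kept its call only when SPF 30 was left out: it was lost without GF 5 (0.0805), GF 6 (0.122), GF 7 (0.134), SPF 31 (0.161), SPF 32 (0.155), CGF 17 (0.0671), CGF 18 (0.0612) and CGF 19 (0.0606).

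**Figure D2:**
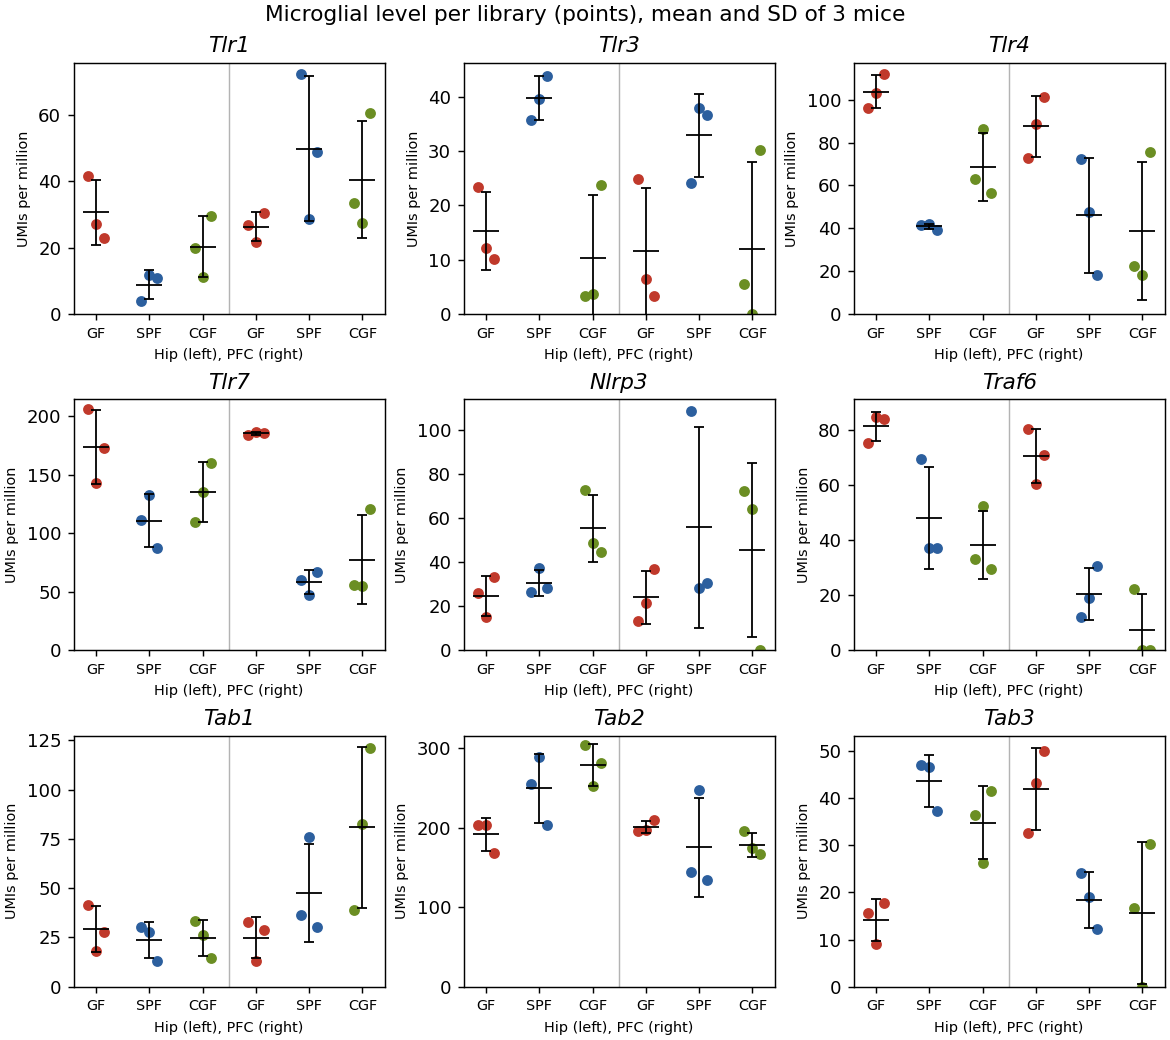
Level of 9 members in the microglia of every library (CPM, points; bars are the mean and SD of 3 mice) by group and region. In the Hip the 3 GF points of Tlr4 sit between 96.3 and 112 CPM and the 3 SPF points between 39.4 and 42, and in the PFC the 3 GF points of Tlr7 sit between 184 and 186 and the SPF points between 47.5 and 67.1.

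GF was also compared with CGF, a comparison that shares the GF libraries with the one above. In the Hip 4 of 20 members were called, where 21.8% of all genes were. Traf6 was higher in GF (1.11 ± 0.31, adjusted p 0.0124), and Tab3 was lower (-1.26 ± 0.42, adjusted p 0.0306). Nlrp3 (chr11:59541568-59566956) was lower in GF than in CGF, with 26, 15.2 and 33.1 CPM in GF, 26.3, 37.3 and 28.5 in SPF and 72.8, 48.9 and 44.5 in CGF libraries. The CGF libraries were above all others, and the fold change of GF over CGF was -1.12 ± 0.36, adjusted p 0.0265. Tab2 (chr10:7905653-7956230) was at 203, 203 and 168 CPM in GF, 255, 289 and 204 in SPF and 304, 252 and 282 in CGF libraries. The GF libraries were below all others, by a narrow margin from SPF mouse 32, and the fold change of GF over CGF was -0.54 ± 0.18, adjusted p 0.0302. Tlr4 had 0.62 ± 0.24, adjusted p 0.0654, and none of the 7 NF-kB genes passed (1 at an unadjusted p under 0.05, and 0 calls by DESeq2). DESeq2 called none of the 4, thinned sums kept Traf6 alone, and removal of the length and GC trend ended the calls of Tab2 and Tab3. Tlr4 was called higher in GF with that trend removed and with the stricter gate. The count was 2 without GF 5 or CGF 19, 1 without GF 6 and 0 without CGF 17. Traf6 lost its call without CGF 17 (0.07) and CGF 19 (0.0841) and Tab3 without GF 5 (0.0563), GF 6 (0.118), CGF 17 (0.0645) and CGF 19 (0.0938). Nlrp3 lost its call without GF 5 (0.0525), GF 6 (0.118) and CGF 17 (0.127) and Tab2 without GF 6 (0.0527), GF 7 (0.11) and CGF 17 (0.0805).

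Between CGF and SPF microglia no member passed in either region, of 20 tested in the Hip and 11 in the PFC, by edgeR or by DESeq2. Few genes of any kind did: 0.0617% in the Hip and 0.0215% in the PFC. At an unadjusted p under 0.05 there were 4 members in the Hip, all among the 5 receptors tested, and 0 in the PFC. These 4 were Tlr1 (1.28 ± 0.56), Tlr3 (-1.80 ± 0.51), Tlr4 (0.74 ± 0.27) and Nlrp3 (0.87 ± 0.33), with adjusted p from 0.366 to 0.671. The share of all genes at that unadjusted cut is not given. Tlr3 and Tlr1 met the filter on low counts only through libraries where they were high, as described above. The count of 4 therefore describes the members tested and supports nothing about the receptors as a tier.

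**Figure D3:**
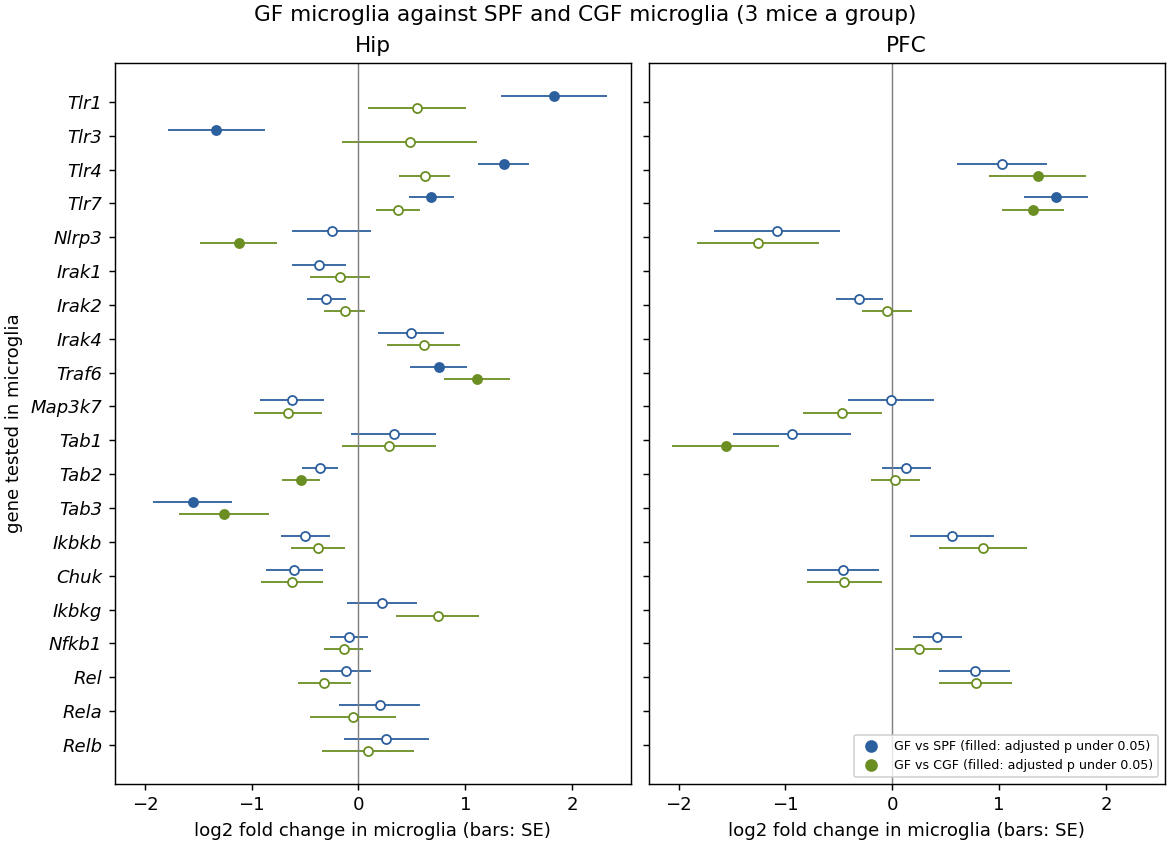
Log2 fold change (points) and SE (bars) of each member tested in microglia, GF over SPF in blue and GF over CGF in green, in the Hip and the PFC; filled points have an adjusted p under 0.05. The filled points are receptors and TRAF6 or TAB genes, and the NF-kB genes are open in both regions.

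In PFC microglia 11 members could be tested. Tlr7 was higher in GF than in SPF, the only call among 11 in a comparison where 35.2% of all genes were called. Against CGF, Tlr7 and Tlr4 were higher in GF and Tab1 was lower, 3 calls of 11, where 31.8% of all genes were called. Tlr7 and Tlr4 met the filter on low counts only with their GF libraries counted, and Tab1 only through SPF 31, CGF 18 and CGF 19. These counts therefore describe the members tested and support nothing about the members as a set. The PFC values of Tlr7 were 184, 186 and 185 CPM in GF, 60.2, 47.5 and 67.1 in SPF and 55.8, 54.9 and 121 in CGF libraries. All GF libraries were above all others, but the SPF values rest on 5, 5 and 11 UMIs and the CGF values on 10, 6 and 8. The fold changes were 1.53 ± 0.30, adjusted p 0.000185 against SPF and 1.32 ± 0.29, adjusted p 0.000858 against CGF. With all sums thinned to the lowest sum, 4 members could be tested and Tlr7 was called against SPF and not against CGF.

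The PFC values of Tlr4 were 72.9, 88.8 and 101 CPM in GF, 72.3, 47.5 and 18.3 in SPF and 22.3, 18.3 and 75.6 in CGF libraries. SPF mouse 30 lay just below the GF range and CGF mouse 19 within it. The fold changes were 1.03 ± 0.42, adjusted p 0.0577 against SPF and 1.36 ± 0.45, adjusted p 0.0205 against CGF. Tab1 (chr15:80133127-80161707), which binds and activates MAP3K7, was at 32.6, 13 and 29 CPM in GF, 36.1, 76 and 30.5 in SPF and 39, 82.3 and 121 in CGF libraries. The GF libraries were below all CGF libraries and overlapped SPF mouse 32, with -1.56 ± 0.50, adjusted p 0.0157 against CGF and -0.94 ± 0.55, adjusted p 0.19 against SPF. Tlr4 against CGF was not called by DESeq2 and lost its call without GF 7 (0.0742), CGF 17 (0.23) and CGF 18 (0.098), and Tab1 without GF 6 (0.0651), CGF 18 (0.0854) and CGF 19 (0.0982). The count of calls against SPF was 2 without GF 5 or any SPF mouse and 3 without CGF 18 or CGF 19, and against CGF it was 5 without SPF 30, SPF 31 or CGF 19. The members gained in these fits were Tlr4, Traf6 (both higher in GF) and Tlr5 (lower) against SPF, and Traf6, Tlr5, Nlrp3 (lower) and Ikbkb against CGF.

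Of the NF-kB genes 4 could be tested in the PFC and none passed, by edgeR or by DESeq2 (1 at an unadjusted p under 0.05 against SPF and 2 against CGF). Rel had 0.77 ± 0.33, adjusted p 0.0726 against SPF and 0.78 ± 0.34, adjusted p 0.0738 against CGF, the values nearest to the threshold. Ikbkb passed against CGF when CGF 19 was left out (1.48, adjusted p 0.0169). Without the filter on low counts, edgeR called 4 members against SPF (Tlr4, Tlr7, Irak4 and Traf6), and DESeq2 called 3 (Tlr7, Irak4 and, lower in GF, Tlr5). Traf6 had 42, 28 and 44 UMIs in GF, 1, 2 and 5 in SPF and 4, 0 and 0 in CGF libraries, too few for the main test.

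Other quantities moved with the groups in the same microglial sums. Markers of excitatory neurons kept out of the gates (4 of 4 found) summed in Hip microglia to 1652 to 2027 CPM (GF), 1091 to 1515 (SPF) and 893.6 to 1432 (CGF), and in PFC microglia to 1956 to 2240, 1096 to 1729 and 967.8 to 1271. Their level was highest in GF in both regions, without overlap, and their part in the member differences was not tested. Interneuron markers (5 of 5 found) were lowest in GF in the Hip, at 324 to 387 CPM against 399 to 503 in SPF, and in the PFC they were at 414 to 514 in GF against 229 to 342 in SPF. Markers of border macrophages were at 4.38 to 83.7 CPM. The median UMIs of a microglial nucleus in the PFC were 1483 to 1672 (GF), 647.5 to 688 (SPF) and 616 to 770 (CGF), and in the Hip they overlapped between groups. The Hip members called between GF and SPF had different levels in excitatory neurons: Traf6 averaged 30.2 CPM there and Tab3 24.9, against 56 and 30.8 in microglia, while Tlr4 averaged 0.531, Tlr1 0.115, Tlr3 0.429 and Tlr7 0.464. Traf6, Tab3 and Tlr3 were also called in Hip excitatory neurons, in the same direction. The share of mitochondrial UMIs in a library, before any nucleus was removed, also separated GF from the other groups, in opposite directions in the Hip and the PFC. In the Hip the GF libraries, at 0.645% to 1.10%, lay above SPF (0.128% to 0.471%) and CGF (0.077% to 0.218%), and in the PFC the GF libraries, at 0.359% to 0.594%, lay below SPF (1.66% to 3.22%) and CGF (1.28% to 2.24%). Its part in the member differences was not tested.

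The regions were compared within each group in a fit of all 18 microglial sums, in which 22 members were tested. PFC libraries held fewer UMIs than Hip libraries in SPF and CGF mice and more in GF mice, without overlap (ranges above), so region and depth cannot be told apart within a group. In GF mice 1 member was called, where 2.36% of all genes were, and in SPF mice 3, where 19.9% were. In CGF mice 2 were called, where 18.3% were. No NF-kB gene was among them (0, 1 and 2 at an unadjusted p under 0.05). Tab3 was lower in the Hip than in the PFC of GF mice, -1.50 ± 0.39, adjusted p 0.0221. In SPF mice Tlr1 (-2.57 ± 0.57, adjusted p 0.000996) and Tlr5 (-1.81 ± 0.66, adjusted p 0.0445) were lower in the Hip and Irak4 (2.49 ± 0.73, adjusted p 0.013) was higher. In CGF mice Tab1 was lower in the Hip (-1.60 ± 0.50, adjusted p 0.0214) and Tlr7 higher (0.88 ± 0.32, adjusted p 0.0485); with the mouse as a block the Tlr7 call was lost, with an adjusted p of 0.0872. DESeq2 kept Tlr1, Tlr5 and Tab1 and did not call Tab3, Irak4 or Tlr7, and the stricter gate did not call these 3 either. Without the filter on low counts Tlr7 was not called, Nfkb1 was called higher in the Hip of SPF mice and Ticam1 lower in the Hip of CGF mice. DESeq2 also called Ticam1 lower in the Hip of SPF and CGF mice. The stricter gate called Ikbkg, an NF-kB gene, higher in the Hip of SPF mice.

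The difference of GF from SPF was itself compared between the regions as an interaction, for which 2 of 22 members were called, where 9.49% of all genes were. Tlr1 had a difference of 2.80 ± 0.67, adjusted p 0.0052 (Hip minus PFC). Its PFC values were 26.9, 21.7 and 30.6 CPM in GF, 72.3, 28.5 and 48.8 in SPF and 33.5, 27.4 and 60.5 in CGF libraries, with SPF mouse 31 inside the GF range and SPF mice 30 and 32 above it. The PFC values of SPF rest on 6, 3 and 8 UMIs. Tab3 had -2.72 ± 0.67, adjusted p 0.00606. In the PFC it stood at 32.6, 43.3 and 49.9 CPM in GF, 24.1, 19 and 12.2 in SPF and 16.7, 0 and 30.2 in CGF libraries, with GF above all others, the opposite of the Hip. The mitochondrial share of the libraries also differed between GF and SPF in opposite directions in the regions, and its part was not tested. Irak4 (chr15:94543643-94581815), the first kinase of the MYD88 complex, had -2.42 ± 0.81, adjusted p 0.0508. Its Hip values were 52.1, 45.5 and 53.4 CPM in GF, 47, 37.3 and 24.1 in SPF and 39.7, 30.1 and 29.6 in CGF libraries, and its PFC values 49.9, 41.1 and 54.8, 0, 9.5 and 6.1 and 11.2, 9.15 and 30.2. For SPF in the PFC these rest on 0, 1 and 1 UMIs. Of the region calls, Tab3 in GF was lost without GF 5 (0.0614), GF 6 (0.282) and GF 7 (0.239) and Irak4 in SPF without SPF 30 (0.147). Tlr5 in SPF was lost without SPF 30 (0.0902), SPF 32 (0.51), CGF 17 (0.056), CGF 18 (0.0517) and CGF 19 (0.0524), Tab1 in CGF without CGF 18 (0.129) and CGF 19 (0.277) and Tlr7 in CGF without GF 5 (0.0519), GF 6 (0.0535), GF 7 (0.0584), SPF 30 (0.0518), CGF 17 (0.258), CGF 18 (0.182) and CGF 19 (0.0743). The interaction of Tlr1 lost its call without SPF 30 (0.0754), that of Tab3 kept it without each mouse, and neither gene could be tested in thinned sums.

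Outside microglia members of all 3 tiers differed between GF and SPF. There were 36 calls of a member in 1 of the 6 other classes in the Hip and 32 in the PFC. In the Hip 7 of 22 members tested were called in astrocytes (33% of all genes), 11 of 20 in oligodendrocytes (33.4%), 0 of 14 in OPC (22%; 5 at an unadjusted p under 0.05), 1 of 12 in endothelium (4.48%), 13 of 24 in excitatory neurons (46.1%) and 4 of 14 in interneurons (32.4%). In the PFC the counts were 7 of 15 in astrocytes (47.8%), 4 of 8 in oligodendrocytes (38.4%), 2 of 9 in OPC (33%), 5 of 10 in endothelium (34.9%), 13 of 23 in excitatory neurons (63.1%) and 1 of 12 in interneurons (46.6%). The percentages are of all genes tested in that class.

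Traf6 was the member called in the most classes. It was higher in GF in 5 of the 7 classes tested in the Hip, microglia included, and in 5 of 6 in the PFC. In oligodendrocytes its Hip levels, as lowest, median and highest of 3 libraries, were 194, 201 and 202 CPM in GF, 45.7, 70.8 and 122 in SPF and 58.4, 59.8 and 80.4 in CGF mice. The PFC levels were 155, 172 and 183 in GF, 14.7, 42.5 and 73.8 in SPF and 35.6, 40.4 and 46.5 in CGF mice. GF libraries were above all others in both regions, and the fold changes were 1.36 ± 0.24, adjusted p 0.000734 and 2.07 ± 0.28, adjusted p 6.08e-07. In excitatory neurons Traf6 had 0.77 ± 0.12 in the Hip and 1.26 ± 0.18 in the PFC, and in interneurons 0.69 ± 0.14 and 1.14 ± 0.22. Endothelium was the class with no call for it in either region.

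Among the genes of the MAP3K7 complex in the Hip, Map3k7 and Tab2 were each called lower in GF in 4 of 7 classes and Tab3 in 3 of 7. Tab1 was called in 0 of 6 (0 at an unadjusted p under 0.05), with log2 fold changes from -0.40 to 0.52. In oligodendrocytes Map3k7 was at 22.7, 26.1 and 35.4 CPM in GF and 50.3, 52.1 and 65.9 in SPF mice (-0.93 ± 0.19, adjusted p 0.00189), without overlap. Tab2 was at 61.1, 70.7 and 85.8 CPM in GF and 112, 118 and 125 in SPF mice of the same class (-0.65 ± 0.16, adjusted p 0.00543), again without overlap. In the PFC Map3k7 was called lower in 2 of 7 classes and Tab2 in none of 7 (1 at an unadjusted p under 0.05), while Tab1 was lower in 4 of 6. Tab3 was higher in 1 class of the PFC, excitatory neurons (0.54 ± 0.09), and lower in that class in the Hip (-0.55 ± 0.08).

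Ticam1, Tirap and Irak4, which act nearer the receptor, were higher in GF in every class and region where they were called. Ticam1, the adaptor of TLR3, was higher in 3 of 3 classes tested in the Hip and called in 0 of 2 in the PFC, where both log2 fold changes were negative (-0.56 and -0.22). In PFC microglia DESeq2 called Ticam1 lower in GF than in CGF. Tirap in excitatory neurons was at 3.24, 4.88 and 4.93 CPM in GF and 0.286, 0.295 and 0.64 in SPF libraries of the PFC (3.60 ± 0.35, adjusted p 2.77e-06), with 1.27 ± 0.23 in the Hip. Irak4 in the same cells had 2.55 ± 0.23 in the PFC and 0.56 ± 0.13 in the Hip. Irak2 in endothelium was higher in GF in both regions, by 1.32 ± 0.32 and 1.03 ± 0.25. In the PFC it was called higher in 2 classes in all. In PFC astrocytes, the class with its highest mean, it was at 506, 572 and 761 CPM in GF and 317, 325 and 380 in SPF mice, without overlap. In the Hip it was lower in oligodendrocytes (-0.70 ± 0.21) and excitatory neurons (-0.44 ± 0.13), and Irak1 was lower in Hip oligodendrocytes (-0.85 ± 0.28).

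Of the receptors outside microglia, Tlr3 and Nod1 were lower in GF. Tlr3 in PFC astrocytes was at 1.35, 5.28 and 22.3 CPM in GF, 38.3, 39.5 and 41.8 in SPF and 4.23, 9.36 and 21.7 in CGF mice. SPF libraries were above all others, and the fold change of GF over SPF was -2.00 ± 0.48, adjusted p 0.00137. In excitatory neurons Tlr3 had -2.34 ± 0.58 in the Hip and -2.22 ± 0.38 in the PFC. In Hip astrocytes the test was not passed (-0.99 ± 0.44, adjusted p 0.0943). Nod1 in oligodendrocytes had -0.89 ± 0.28 in the Hip and -1.69 ± 0.33 in the PFC, and it was lower in GF endothelium of the PFC (-1.27 ± 0.30).

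Among the NF-kB genes Nfkbia had the largest change in another class. In Hip oligodendrocytes it was at 23.1, 26.2 and 29.1 CPM in GF, 4.88, 6.05 and 7.25 in SPF and 4.47, 5.49 and 10.7 in CGF mice. GF libraries were above all others, and the fold change of GF over SPF was 2.17 ± 0.31, adjusted p 0.000153. Nfkbia was also higher in GF in Hip astrocytes (a fold change of 1.99 on the linear scale), and on the log2 scale in Hip excitatory neurons (0.83 ± 0.21) and PFC endothelium (0.91 ± 0.25), and lower in PFC excitatory neurons (-1.12 ± 0.19). In the Hip endothelium, where its level was highest, it was at 251, 254 and 355 CPM in GF and 127, 196 and 223 in SPF mice, without overlap and without a call (0.76 ± 0.24, adjusted p 0.082). Nfkb1 was lower in GF in Hip excitatory neurons (-0.39 ± 0.07), Hip interneurons (-0.58 ± 0.10) and PFC endothelium (-0.64 ± 0.22). Chuk was lower in 1 class of the Hip and 3 of the PFC. Ikbkg was higher in PFC astrocytes (1.48 ± 0.32) and PFC excitatory neurons (0.49 ± 0.17). As in microglia, group and depth cannot be told apart in the PFC values.

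**Figure D4:**
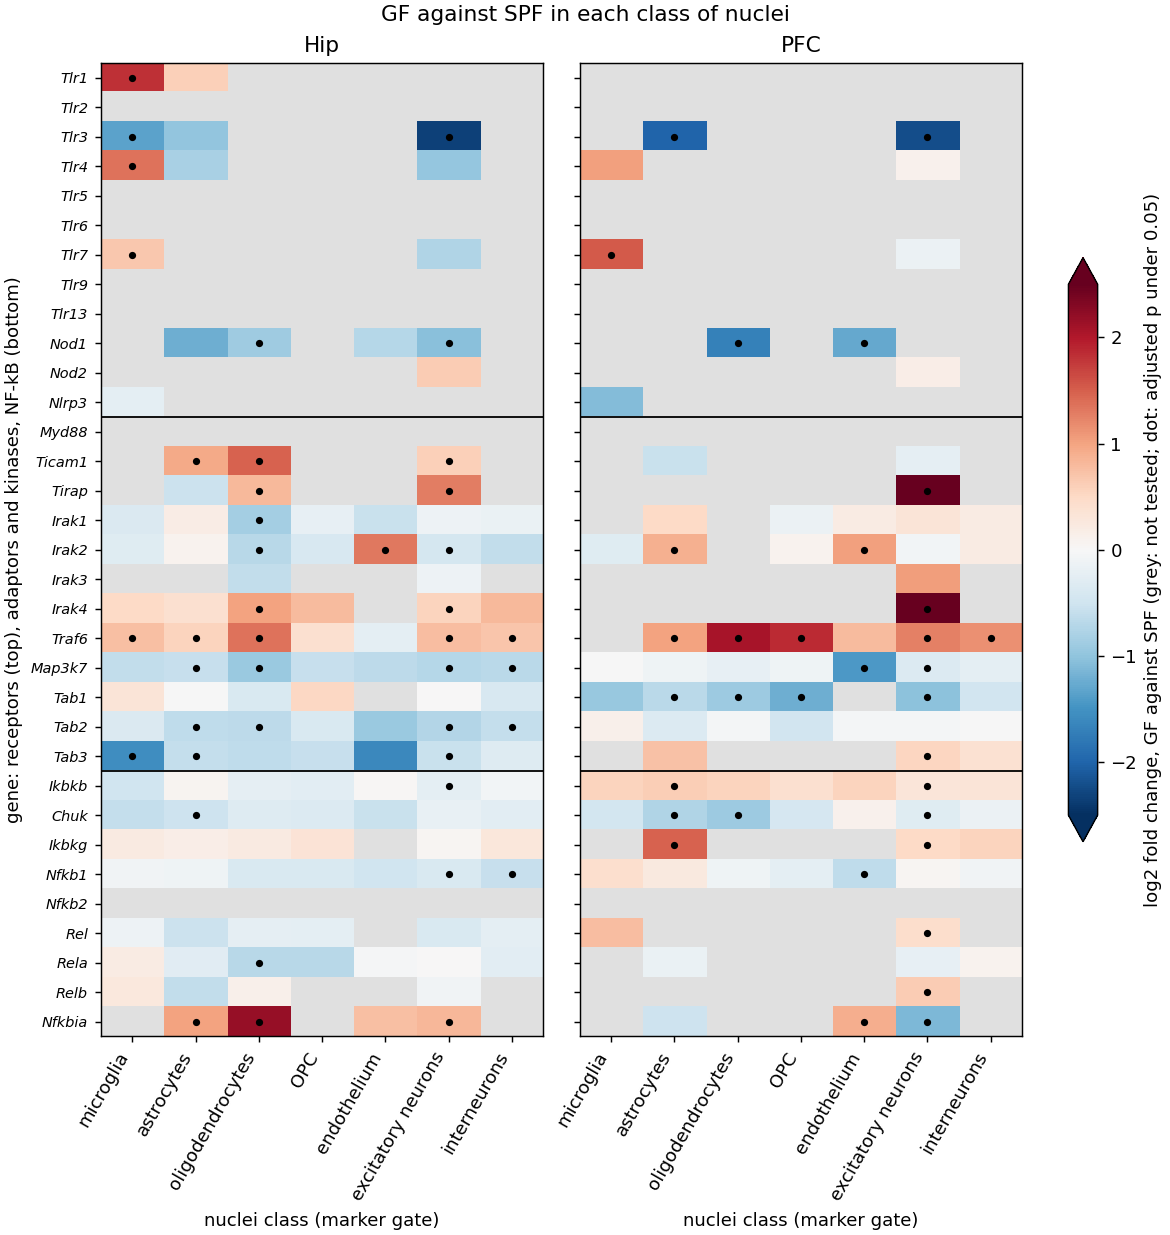
Log2 fold change of GF over SPF (colour) of each member in each of 7 classes in the Hip and the PFC; a dot marks an adjusted p under 0.05 and grey a member that was not tested. The Traf6 row is positive with dots in 5 of 7 classes of the Hip and 5 of 6 of the PFC, and the Map3k7 and Tab2 rows are negative with dots in 4 of 7 Hip classes.

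Another 81 genes of the pathway, in 6 lists, were read in the same microglial fits. The shares of all genes called in these fits, given above, were 22.2% (GF against SPF) and 21.8% (GF against CGF) in the Hip and 35.2% (GF against SPF) in the PFC. Of the receptor partners 3 of 6 tested were called between GF and SPF in the Hip. Cd14, the co-receptor that hands lipopolysaccharide to TLR4, was 1.57 ± 0.37, adjusted p 0.00286, and Unc93b1, which carries TLR3, TLR7, TLR9 and TLR13 to endosomes, was 0.75 ± 0.16, adjusted p 0.00155. Cd180, a TLR4-related receptor, was -1.01 ± 0.22, adjusted p 0.00138. These 3 were also called against CGF, at 1.46 ± 0.41, 0.46 ± 0.17 and -0.91 ± 0.23. In the PFC Unc93b1 was called against SPF (0.67 ± 0.20), 1 of 4 tested.

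Of the genes listed as negative regulators 1 of 8 was called in the Hip, Nfkbiz (-1.59 ± 0.47, adjusted p 0.0149), and in the interferon branch 1 of 4, Irf3 (1.14 ± 0.38, adjusted p 0.0325). In the PFC 1 of 5 genes listed as negative regulators was called, Trafd1, higher in GF (1.26 ± 0.44, adjusted p 0.0267), and 0 of 4 genes of the interferon branch (0 at an unadjusted p under 0.05). The name of a list does not settle how each of its genes acts on the pathway. Among the NOD and inflammasome partners 2 of 6 were called in the Hip, Pycard (0.97 ± 0.27) and Txnip (1.25 ± 0.33), and 4 of 6 in the PFC, where 22.2% and 35.2% of all genes were. Pycard, the ASC adaptor of inflammasomes, had 3.13 ± 0.52, adjusted p 2.09e-05 in the PFC, and Card9 (-2.32 ± 0.54), Gsdmd (-1.61 ± 0.37) and Txnip (-1.07 ± 0.38) were lower. All 4 also differed between the regions in the interaction, where 9.49% of all genes did, Txnip with 2.33 ± 0.51, adjusted p 0.00193. The ubiquitin and kinase partners had 0 calls of 7 in the Hip and 0 of 2 in the PFC by edgeR (2 and 0 at an unadjusted p under 0.05).

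Few of the transcripts that NF-kB is known to induce could be tested in microglia. Of 24 such target genes 9 had under 10 microglial UMIs, 4 of these none, and 3 could be tested in the Hip and 1 in the PFC. Over the 18 libraries Junb had 549 UMIs, Icam1 267 and Sod2 260. Junb passed in both regions, with 1.73 ± 0.25, adjusted p 2.32e-05 in the Hip and 1.48 ± 0.40, adjusted p 0.00456 in the PFC, and against CGF with 1.46 ± 0.26 and 1.20 ± 0.38. Icam1 (0.45 ± 0.36) and Sod2 (0.69 ± 0.31) did not pass in the Hip. Tnf had 10 UMIs in 8 of the 18 microglial libraries, and Ccl2 had 1 UMI, too few for any comparison between groups.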

How the data were processed

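The authors prepared nuclei from frozen Hip and PFC by sucrose gradient and made 10x Genomics 3' libraries. The authors' deposited counts are unnormalized UMI counts per gene and nucleus on mm10, from Cell Ranger (the matrix headers give 3.1.0). Whether intronic reads were counted is not given in the sources used here. Of 139924 barcodes, 1924 had under 200 genes or a mitochondrial share above 10% and were removed. A nucleus entered a class when at least 2 of that class's gate markers and a minimum share of its UMIs (for microglia 30 per 10000, from 17 markers) were met. Left out were 2283 nuclei in which a second non-neuronal gate reached at least 0.5 of the strongest, and a weaker second gate was allowed. The gates of microglia and border-associated macrophages did not count against each other. A nucleus that opened both could be placed only among border macrophages, even where its microglial gate was the stronger. Another 19704 nuclei were placed in no class and left out. Nuclei gated as mural cells, fibroblasts or choroid and ependymal cells were also left out. The neuronal gates did not count against a glial class, so nuclei that also carried neuronal markers could remain among microglia. No doublet caller was run. Of microglia, 3.06% lay near the gate.

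UMIs were summed per library and class, the library being the replicate, and fitted with edgeR 4.0.16 in R 4.3.3 (filterByExpr, TMM, glmQLFit, glmQLFTest), over all genes of the class, with the 9 libraries of a region or all 18. Adjusted p-values are Benjamini-Hochberg over all genes tested, with a threshold of 0.05, and the SE was taken as the size of the log2 fold change over the square root of the F statistic. P-values rest on 3 mice a group and on a spread estimated from all libraries of a fit and moderated across genes. Those of GF against SPF therefore also depend on the CGF mice. The filter on low counts keeps a gene with enough UMIs in as many libraries as the smallest group holds. In any class a gene could therefore be tested through the group where it was high. CPM are UMIs divided by the class sum of the library and multiplied by 1000000. The fit was tested on simulated data. Alternatives were DESeq2 1.42.0, no filter, a stricter gate (4 markers), thinned sums, removal of a length and GC trend, only the libraries compared, the mouse as a block and each mouse left out. Per kb values use the gene body in the annotation of the mm10 build.

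The mouse number marks both regions of 1 animal. Over 8655 genes, what remained of its Hip and PFC sums after removal of the group mean correlated by 0.00227 to 0.133. The highest correlation with another mouse was larger for SPF 31 (0.0562 against 0.0192), CGF 17 (0.00701 against 0.00388) and CGF 19 (0.0211 against 0.00227). It was smaller for the remaining mice. These correlations therefore do not settle the pairing.

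Named in every library were members called in microglia between GF and SPF or CGF, the highest microglial member of each tier, and the region or interaction calls with the 3 largest changes. The members, lists and tests were chosen with earlier results of these data known. Python 3.11.15, numpy 2.4.6, scipy 1.17.1, pandas 2.3.3 and matplotlib 3.10.9 were used.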

Additional observations from a re-analysis of the deposited data

Results flagged for a closer look

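The effect of GF against SPF in microglia differed between the regions, by a test of the difference itself, for 2 members. Tlr1 differed by 2.80 log2 units (Hip minus PFC) and Tab3 by -2.72. Tlr1 was higher in all 3 GF than in all 3 SPF libraries of the Hip, while in the PFC its SPF values rest on 6, 3 and 8 UMIs. Tab3 was lower in GF in the Hip and higher in GF in the PFC, where its SPF values rest on 2, 2 and 2 UMIs. Summed microglial UMIs per library were higher in GF than in SPF in the PFC (461675 to 620997 against 83035 to 163947). In the Hip they were lower in GF (329897 to 393132 against 429010 to 532509). The sums did not overlap in either region, and their part was not tested. The mitochondrial share of UMIs was higher in GF than in SPF libraries in the Hip (0.645% to 1.10% against 0.128% to 0.471%) and lower in the PFC (0.359% to 0.594% against 1.66% to 3.22%), and its part was not tested.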

How the results depend on the processing

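Counts of members called kept within 1.5 times of their value under most alternatives, with these exceptions. DESeq2 gave 2 (GF against SPF) and 0 (GF against CGF) in the Hip, 3 and 5 in the PFC, and 0 for Hip against PFC in GF. Without the filter on low counts the PFC gave 4 and 6, and with only the 6 libraries compared 3 and 5. The stricter gate gave 0 and 1 for the regions in GF and CGF. Thinned sums, in which few members can be tested, gave 1 for GF against CGF in the Hip and 0 in the PFC, 5 and 3 for microglia against the other classes in the Hip and PFC, and 0 for the regions in GF, SPF and CGF and for the interaction. The mouse as a replicate block gave 1 for the regions in CGF and changed no other call of a member. Leaving out 1 mouse gave 3 to 5 (GF against SPF) and 0 to 5 (GF against CGF) in the Hip, 1 to 3 and 2 to 5 in the PFC, 0 to 1, 1 to 3 and 0 to 3 for the regions in GF, SPF and CGF, and 1 to 2 for the interaction. In the other classes the counts were within 27 to 39 in the Hip and 28 to 39 in the PFC over every alternative run. Reversed signs arose only for members without a call: with thinned sums Nlrp3 in the Hip (0.05) and Tab2 in the PFC (-0.28), with the length and GC trend removed Nfkb1 (0.11) and Rela (-0.10) in the Hip and Tab2 in the PFC (-0.002), and for Map3k7 in the PFC with DESeq2 (0.05) and with no filter (0.14). Leaving out 1 mouse moved Tab1 from -0.02 to 0.55, Nfkb1 from -0.16 to 0.01, Rel from -0.35 to 0.07 and Relb from -0.002 to 0.56 in the Hip, and Map3k7 from -0.13 to 0.20 and Tab2 from -0.06 to 0.42 in the PFC. Apart from the fewer members tested in thinned sums, the cause of these changes was not tested. Depth limits the PFC most, where SPF and CGF microglia hold 66128 to 179340 UMIs a library.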
